A study of Mus musculus with 55 samples.

Results

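The genes described here are the major histocompatibility complex (MHC) genes of the mouse and the genes that supply, load or induce their products. Members were the table rows whose symbol begins with H2-, the mouse prefix of the MHC, together with B2m, Cd74, Ciita, Nlrc5, Tap1, Tap2, Tapbp, Psmb8, Psmb9, Psmb10, Erap1, Cd1d1 and Cd1d2. This gave 58 of the 55421 genes in the table. Class I held 40 of them, of which 31 were heavy chain genes and 9 were pathway genes. Class II held 14, of which 12 were chain genes and the others were Cd74 and Ciita. The lipid-presenting Cd1d1 and Cd1d2 made 2 more, and 2 H2- symbols fell outside the classes, the pseudogene H2-T-ps and H2-Ke6. H2-Ke6 carries the prefix only because it lies within the MHC on chromosome 17, and it encodes a hydroxysteroid dehydrogenase that does not present antigen.

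RNA-seq was performed on 6 bone marrow populations sorted from wild-type (WT) and Tet2-/- mice: long-term and short-term hematopoietic stem cells (LT-HSC, ST-HSC), common myeloid progenitors (CMP), granulocyte-monocyte progenitors (GMP), megakaryocyte-erythrocyte progenitors (MEP) and common lymphoid progenitors (CLP). Of 46 libraries, each made from 200 sorted cells by the labels (the study's methods give a different, approximate number), 22 were WT (3 for LT-HSCs, 3 for ST-HSCs and 4 for each other population) and 24 were Tet2-/- (4 for each population). The comparison asks how loss of Tet2, which encodes an enzyme that oxidizes 5-methylcytosine, alters transcription in stem and progenitor cells. Tet2-/- stands for floxed Tet2 alleles (Tet2 f/f) deleted by Mx1-Cre, a recombinase under an interferon-responsive promoter that was induced with poly(I:C) in young mice, which were then kept for weeks before analysis. Deletion by this driver is not restricted to blood cells. Whether the WT mice carried Mx1-Cre or received poly(I:C), itself an inducer of interferon and so of many genes described here, is not given in the sources used here, and if the groups differ in it, an effect of that treatment and one of Tet2 loss cannot be told apart. The study gives its replicates as mice, without saying which library came from which mouse.

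MHC class I molecules pair a polymorphic heavy chain (H2-K1 and H2-D1 encode the classical ones, the H2-Q, H2-T and H2-M genes non-classical ones) with the light chain beta-2-microglobulin, encoded by B2m. Peptides for them are cut by the immunoproteasome (Psmb8, Psmb9, Psmb10), carried into the endoplasmic reticulum by the transporter Tap1-Tap2, trimmed by Erap1 and loaded with the help of tapasin (Tapbp), and the whole set is induced by interferon through Nlrc5. Class II molecules (H2-Aa with H2-Ab1, and H2-Eb1, whose partner gene is listed as the pseudogene H2-Ea-ps) are chaperoned by the invariant chain Cd74 and loaded by H2-DM under restraint by H2-O, and Ciita is their master activator. Class I is carried by nearly all nucleated cells. Class II is best known from B cells, dendritic cells and macrophages, and is also carried by some stem and progenitor cells.

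The promoters of 5 members are shown because they hold the short elements through which these genes are known to be induced together. They were taken from RefSeq on build GRCm38.p6 and run from 250 bases before to 50 bases after the annotated start. Capitals mark the motifs searched on both strands, which did not overlap in the windows printed: the Y box CCAAT, the X box by its core (CC, any base, AG, any 2 bases, AC, any base, G), the interferon-stimulated response element by its core (GAAA, any 2 bases, GAAA), and a kappa B site, given by the first capitals of the H2-D1 line.
H2-K1, minus strand, chr17:34000284-34000583: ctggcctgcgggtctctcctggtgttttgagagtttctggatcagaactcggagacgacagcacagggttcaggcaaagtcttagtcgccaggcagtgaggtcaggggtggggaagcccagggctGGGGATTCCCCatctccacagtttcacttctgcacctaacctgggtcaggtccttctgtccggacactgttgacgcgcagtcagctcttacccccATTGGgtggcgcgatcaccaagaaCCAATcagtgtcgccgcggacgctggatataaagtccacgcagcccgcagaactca
H2-D1, plus strand, chr17:35262844-35263143: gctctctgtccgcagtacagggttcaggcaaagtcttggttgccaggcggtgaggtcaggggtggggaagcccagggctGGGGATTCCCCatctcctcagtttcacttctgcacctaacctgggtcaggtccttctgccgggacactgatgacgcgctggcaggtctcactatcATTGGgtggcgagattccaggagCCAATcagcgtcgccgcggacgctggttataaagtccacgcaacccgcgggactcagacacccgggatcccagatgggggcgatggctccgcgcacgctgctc
B2m, plus strand, chr2:122147437-122147736: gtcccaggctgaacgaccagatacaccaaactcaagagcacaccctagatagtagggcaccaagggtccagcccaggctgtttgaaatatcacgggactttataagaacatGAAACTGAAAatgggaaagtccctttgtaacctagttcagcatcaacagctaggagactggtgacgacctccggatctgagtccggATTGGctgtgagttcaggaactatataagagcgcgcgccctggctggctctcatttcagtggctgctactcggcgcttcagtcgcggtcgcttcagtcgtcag
H2-Eb1, plus strand, chr17:34305617-34305916: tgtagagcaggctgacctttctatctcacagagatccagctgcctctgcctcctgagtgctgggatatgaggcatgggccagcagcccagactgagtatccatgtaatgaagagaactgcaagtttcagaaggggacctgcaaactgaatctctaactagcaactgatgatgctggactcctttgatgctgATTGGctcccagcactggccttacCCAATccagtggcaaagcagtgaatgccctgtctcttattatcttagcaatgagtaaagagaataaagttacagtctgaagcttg
H2-DMb1, plus strand, chr17:34152941-34153240: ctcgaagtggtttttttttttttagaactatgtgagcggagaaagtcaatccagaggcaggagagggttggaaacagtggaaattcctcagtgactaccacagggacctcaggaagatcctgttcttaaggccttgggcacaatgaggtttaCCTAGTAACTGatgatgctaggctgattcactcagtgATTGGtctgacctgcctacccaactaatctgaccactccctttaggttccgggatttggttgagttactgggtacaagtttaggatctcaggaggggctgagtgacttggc
H2-K1 and H2-D1 share the kappa B letters, at positions -125 and -171 from the start. Of 32851 mouse promoters, 10 hold those letters, and 3 members, H2-K1, H2-D1 and H2-Q6, have such a promoter. The B2m window holds the interferon element at position -139, and the H2-DMb1 window holds an X box at -98 followed by a Y box at -61. The Y box was present in the promoters of 24 of the 30 matched members that had counts, including all 8 class II chain genes, compared with 37.4% of all promoters. The interferon element core was present in 4 of the 30 compared with 3.44%, and the X box core in 3 compared with 5.33%. Psmb9 and Tap1 are among these 3, and their windows overlap on opposite strands, so the same X box was counted for both. Members were counted per gene, by any of its promoters, and the background per promoter. H2-DMa held a Y box at only 1 of its starts. A match of letters is a description, and in all 39 of the 58 members could be matched to the table.

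Library totals lay between 50458473 and 102148079 counts, and the members together took 0.489% to 2.19% of them. Of the members 50 lie on chromosome 17. Of the 58 members, 10 were at 0 in every library, 9 of them class I heavy chain genes of the H2-M group and 1 the class II pseudogene H2-Pb. Another 7 had counts but no group mean of 1 CPM (the gene's count as a share of its library's TMM-scaled total, the unit used below). A group mean of at least 1 CPM was reached by 41 members, of at least 10 CPM by 36 and of at least 100 CPM by 20. Heavy chain genes resemble each other: of the 50-base windows of their transcripts, 9.63% for H2-K1, 12.8% for H2-D1, 26.5% for H2-Q7, 34.97% for H2-Q6, 50.4% for H2-T10 and 53.5% for H2-T22 also occur in another gene, as do 31.0% for Cd1d2, all with Cd1d1. The split of reads between such genes is therefore uncertain. H2-Ke6 shares 86.4% of its exonic bases with Gm20427 on the same strand. The counting program and its use of strand are not given in the sources used here, so members that overlap a gene on the other strand, among them Psmb9 with Tap1 and H2-DMa with Brd2, carry the same doubt.

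The Tet2 gene itself did not check the genotype labels. Its counts cover the whole gene and not the deleted part, and Tet2 was measured at 13.2 ± 1.77 CPM (SD, n = 3) in WT and 23.9 ± 12.7 CPM (n = 4) in Tet2-/- LT-HSCs, with no population passing the test. The CLP libraries stood apart. Immunoglobulin genes took 25.4, 39.6, 41.8 and 37.2% of counts in the WT CLP libraries and 0.0815, 8.54, 26.1 and 29.05% in the Tet2-/- ones, and at most 0.0231% in every other library. Transcripts typical of plasma cells, the antibody-secreting cells, followed: Jchain was at 13287, 65248, 100599 and 40769 CPM in WT and 23.6, 7657, 41275 and 47436 CPM in Tet2-/- CLPs. All 8 genes of a plasma cell list, chosen after these values were seen, were detected in both groups, with a summed level of 244844 to 621210 CPM in WT and 865 to 329923 CPM in Tet2-/- CLPs. Of 6 B cell genes, Pax5 was at 0 in the WT CLPs while Cd79a was at 293, 646, 591 and 466 CPM, and the 6 summed to 145492 to 278768 CPM in WT and 707 to 130861 CPM in Tet2-/- CLPs. Nearly all of that sum was Ighm, an immunoglobulin gene that the immunoglobulin share and the plasma cell sum also hold, at 144925, 277501, 252884 and 185253 CPM in WT CLPs. The CLP genes Il7r and Dntt were present, apart from Dntt at 0.880 CPM in WT replicate 4, but Rag1 was at 0 in every WT CLP library, Flt3 was at 0 in WT replicate 4, and Ebf1 was at 3.17, 0, 0.314 and 2.31 CPM in WT CLPs. Of 10 dendritic cell and macrophage genes, 5 were at 0 in all WT CLPs (Itgax, Cd209a, C1qa, C1qb and C1qc), and the 10 summed to 0.300 to 58.6 CPM in WT and 0.0782 to 34.8 CPM in Tet2-/- CLPs. Of other lists, 5 GMP genes summed to 4.94 to 3105 CPM in WT and 2.63 to 12328 CPM in Tet2-/- CLPs, and Mpo among them was at 1799, 766, 2.77 and 28.3 CPM in WT and 1.71, 7157, 1596 and 2289 CPM in Tet2-/- CLPs. The sum of 6 T and NK cell genes was 218 to 796 CPM in WT and 461 to 2252 CPM in Tet2-/- CLPs, with Cd3e at 0 in every one of these libraries. Cd3e was thus absent while Ncr1, an NK cell receptor gene, was at 485, 56.3, 87.2 and 209 CPM in WT and 1455, 202, 291 and 152 CPM in Tet2-/- CLPs. Every CLP value below therefore describes the sorted sample as labelled, and the part that plasma, NK or myeloid cells have in it was not tested. By the study's methods CLPs were gated as lineage-negative, cKit-positive cells that carry the IL-7 receptor. Such a gate is meant to leave out mature cells that carry the lineage markers. The lineage antibodies the methods list, given for stem cells, cover B cell, T cell, granulocyte and erythroid markers. None of them is specific to NK or plasma cells. In bulk samples such as these, fewer cells of a type and less RNA per cell cannot be told apart.

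**Figure D1:**
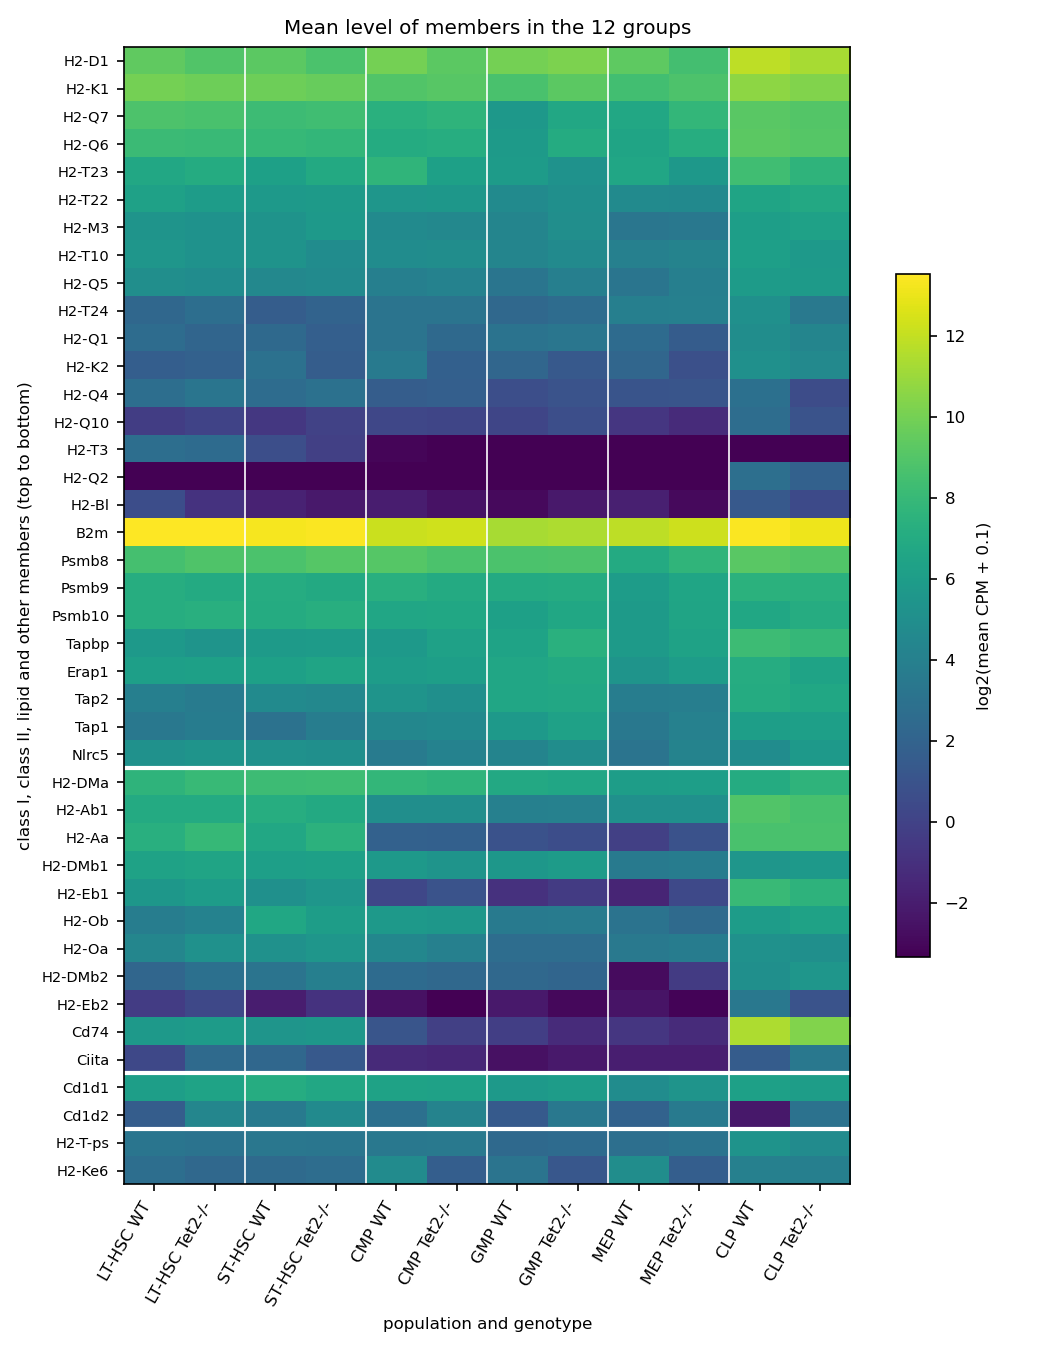
Heatmap of log2(mean CPM + 0.1) for the 41 members with a group mean of at least 1 CPM, grouped by role, in the 12 groups of population and genotype. H2-Aa, H2-Eb1 and Cd74 are high in both stem cell populations and in CLPs and low in CMPs, GMPs and MEPs, and B2m has the highest CPM of any row.

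The classical class I heavy chains were present in every population and highest in the CLP libraries. H2-K1 (chr17:33996017-34000347, build GRCm38, as for every position given here) was at 1079, 923 and 1096 CPM in WT LT-HSCs, 671, 972 and 1021 in ST-HSCs, 499, 437, 519 and 539.9 in CMPs, 456, 379.5, 309.9 and 507 in GMPs and 412, 307, 307 and 365 in MEPs, compared with 1279.5, 2049, 1818 and 1412 in CLPs. The ranges of both stem cell populations overlapped each other and lay above all myeloid libraries, and the CLP range lay above every other. H2-D1 (chr17:35262730-35267499) ran otherwise: WT means were 668 ± 72.4 CPM (SD, n = 3) in LT-HSCs, 614 ± 289 (n = 3) in ST-HSCs, 1009.5 ± 118 (n = 4) in CMPs, 1021 ± 206 (n = 4) in GMPs and 656 ± 80.4 (n = 4) in MEPs, compared with 3614 ± 751 (n = 4) in CLPs. The ratio of H2-D1 to H2-K1 CPM, which is not corrected for gene length, therefore ran from WT LT-HSC values of 0.635, 0.642 and 0.661 to WT GMP values of 2.30, 2.32, 2.50 and 2.78, ranges that did not overlap.

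The non-classical heavy chains fell into patterns of their own. H2-Q7 and H2-Q6, neighbours that encode Qa-2 molecules, were lowest in GMPs: H2-Q7 was at 428, 405 and 508 CPM in WT LT-HSCs but 56.7, 41.9, 33.01 and 68.9 CPM in WT GMPs. H2-Q6 was at 284 ± 38.2 CPM (SD, n = 3) and 57.7 ± 19.2 CPM (n = 4) in the same populations. H2-T23, which encodes Qa-1, a ligand of NK cell receptors, was at 152, 253, 237 and 191 CPM in WT CMPs and 51.7, 78.6, 58.04 and 54.9 CPM in WT GMPs. The H2-T23 values of CMPs and GMPs did not overlap. H2-T22, recognized by gamma delta T cells, ranged from 26.1 CPM (mean, WT GMP) to 92.8 CPM (WT CLP), and H2-M3, which presents formylated peptides, from 9.51 (WT MEP) to 68.3 CPM (WT CLP). H2-Q4 and H2-Q10 were low throughout, with WT means up to 7.42 and 6.41 CPM, both in CLPs.
H2-T3, which encodes the thymus leukemia antigen, was detected almost only in stem cells: it was at 4.90, 6.65 and 8.19 CPM in WT and 11.6, 2.28, 6.30 and 3.51 CPM in Tet2-/- LT-HSCs, at 1.70, 0 and 2.87 and 0.753, 1.41, 1.04 and 0 CPM in ST-HSCs, and at 0 in every library of the other populations except a WT CMP library at 0.0629 CPM. All LT-HSC libraries of both genotypes held it.

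**Figure D2:**
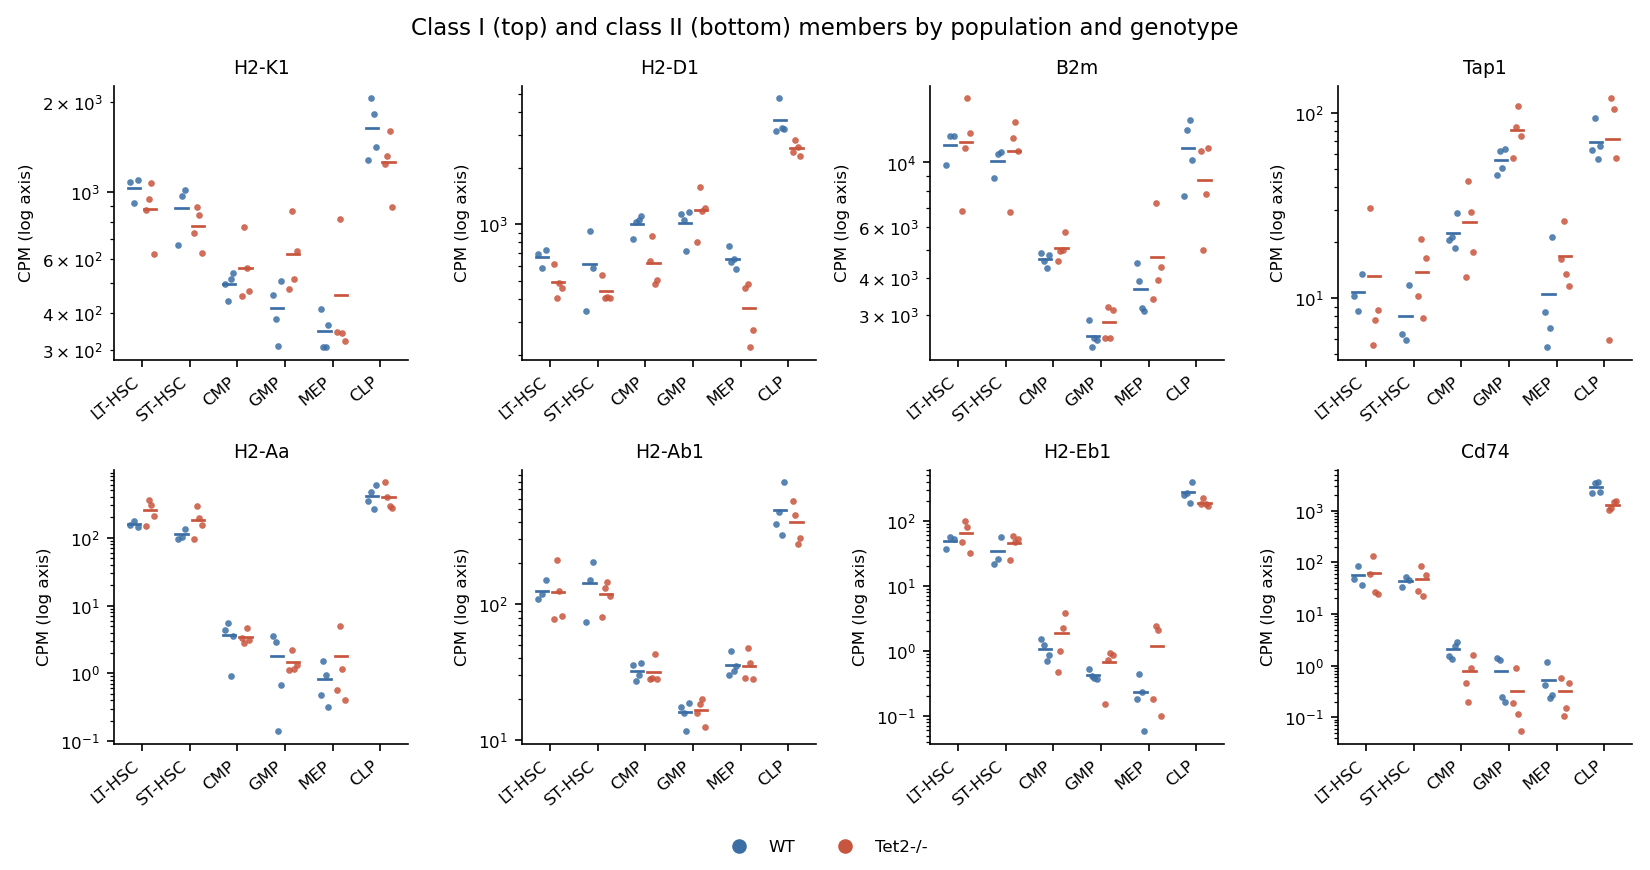
CPM on a log axis for selected class I and class II members in every library, by population and genotype; each dot is a library and each line a group mean. B2m stays above 2000 CPM everywhere, while H2-Aa, H2-Eb1 and Cd74 drop in CMPs, GMPs and MEPs to a few CPM or less.

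B2m (chr2:122147686-122153083), the light chain shared by all class I molecules, was higher in stem cells than in myeloid progenitors. It was at 9799, 12321 and 12300.4 CPM in WT LT-HSCs, 8823, 10689 and 10855 CPM in ST-HSCs, 4881, 4577, 4339 and 4807 CPM in CMPs, 2874, 2315, 2489 and 2461 CPM in GMPs and 4505, 3919, 3157 and 3084 CPM in MEPs, compared with 7698, 12927, 14000.2 and 10203 CPM in CLPs. GMP libraries were the lowest, with no overlap with any other population.
The peptide supply genes did not follow B2m. Both subunits of the peptide transporter were highest in GMPs and CLPs: Tap1 was at 46.02, 62.4, 50.1 and 63.8 CPM in WT GMPs and 10.3, 8.55 and 13.5 CPM in WT LT-HSCs, and Tap2 at 82.6, 103, 97.3 and 119 and 20.3, 14.3 and 11.3 CPM. The GMP and LT-HSC values did not overlap for either gene. Tapbp was at 52.6 ± 13.99 CPM (SD, n = 3) in WT LT-HSCs and 87.1 ± 25.9 CPM (n = 4) in WT GMPs, and Erap1 at 73.2 ± 6.63 and 99.1 ± 9.34 CPM. The immunoproteasome subunits were low in MEPs: Psmb8 was at 139, 135, 118 and 109 CPM in WT MEPs, and its lowest value in any other WT library was 275 CPM. Psmb9 was at 64.3 ± 14.5 CPM (SD, n = 4) in WT MEPs and 162 ± 21.2 CPM in WT CMPs, and Psmb10 at 58.4 ± 9.62 and 99.3 ± 12.5 CPM. Nlrc5 was at 45.6, 29.8 and 33.1 CPM in WT LT-HSCs and 10.7, 11.3, 9.90 and 3.72 CPM in WT MEPs, again with no overlap.

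The class II chains H2-Aa and H2-Eb1 and the invariant chain stood far higher in stem cells than in myeloid progenitors, and were highest in the CLP libraries. H2-Aa (chr17:34282744-34287823), the alpha chain of the I-A molecule, was at 153, 179 and 145 CPM in WT LT-HSCs and 97.05, 104 and 135 CPM in ST-HSCs. It was at 4.43, 5.58, 0.905 and 3.59 CPM in CMPs, 3.58, 2.87, 0.140 and 0.684 CPM in GMPs and 0.480, 1.52, 0.943 and 0.321 CPM in MEPs, and at 345, 474, 263 and 593 CPM in CLPs. Every stem cell library thus lay far above every library of the myeloid progenitors, the highest of which was at 5.58 CPM. H2-Eb1 (chr17:34305867-34316674), the I-E beta chain, had WT means of 48.8 ± 10.8 CPM (SD, n = 3) in LT-HSCs, 34.3 ± 18.4 (n = 3) in ST-HSCs, 1.07 ± 0.371 (n = 4) in CMPs, 0.424 ± 0.0754 (n = 4) in GMPs and 0.231 ± 0.163 (n = 4) in MEPs, compared with 273 ± 84.7 (n = 4) in CLPs. H2-Ab1, the I-A beta chain, was less low in the myeloid populations: it was at 110.3, 118 and 149.9 CPM in WT LT-HSCs, 73.8, 152 and 205 in ST-HSCs, 35.9, 27.1, 30.1 and 36.8 in CMPs, 17.7, 15.96, 11.7 and 18.9 in GMPs and 30.3, 45.6, 32.4 and 34.99 in MEPs, compared with 392, 474, 325 and 788 in CLPs. In MEPs H2-Ab1 was therefore retained at 30.3 CPM or more in libraries in which H2-Aa and H2-Eb1 were at or under 1.52 CPM.
Cd74, the invariant chain, was at 46.95, 84.1 and 36.7 CPM in WT LT-HSCs, 1.39, 1.26, 0.252 and 0.199 CPM in GMPs, 0.420, 1.17, 0.236 and 0.277 CPM in MEPs and 2190.2, 3401, 3513 and 2266 CPM in CLPs. The ratio of Cd74 to H2-Ab1 CPM was 0.460 ± 0.235 (SD, n = 3) in WT LT-HSCs and 6.61 ± 3.32 (n = 4) in WT CLPs.
The loading genes H2-DMa and H2-DMb1 were present in every WT CMP and GMP library, where H2-Aa and H2-Eb1 were low. H2-DMa, a subunit of the peptide exchanger, was at 195 ± 26.5 CPM (SD, n = 3) in WT LT-HSCs, 224 ± 34.2 CPM (n = 4) in CMPs, 116 ± 11.1 CPM (n = 4) in GMPs and 67.8 ± 20.99 CPM (n = 4) in MEPs. H2-DMb1 was at 52.1 ± 7.09 CPM in WT CMPs, 48.3 ± 8.11 CPM in WT GMPs and 11.9 ± 2.97 CPM in WT MEPs (n = 4 each). H2-DMb2 was at 0, 9.41, 8.91 and 5.36 CPM in WT CMPs, 3.59, 5.98, 3.09 and 7.27 CPM in GMPs and 0, 0.109, 0.0655 and 0 CPM in MEPs. H2-Ob, which with H2-Oa restrains the exchanger, separated the stem cell populations: it was at 12.7, 16.6 and 13.7 CPM in WT LT-HSCs and 73.6, 127 and 108 CPM in WT ST-HSCs, with no overlap. H2-Oa was at 12.7, 27.3 and 23.1 and 37.1, 40.2 and 34.9 CPM in these. Ciita was low everywhere, with WT means from 0.0714 CPM in GMPs to 4.76 CPM in ST-HSCs.

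The difference between each WT population and the mean of the other 5 was tested with edgeR's quasi-likelihood test, and a member was called at a Benjamini-Hochberg adjusted p under 0.05, over all genes, and at least a 2-fold change. In LT-HSCs 11 of 41 members tested were called, compared with 12.8% of all genes: 7 were higher (8.5% of all genes) and 4 lower (4.31%). H2-T3, counted among the higher, was tested only because of its stem cell counts, so that nothing is read from its call, and its log2 fold change (6.51) depends on the prior count. Among the others the higher ones were led by H2-Aa (log2 fold change 3.70, SE 0.45, adjusted p = 1.61e-05) and H2-Eb1 (log2 fold change 3.55, SE 0.27, adjusted p = 1.19e-07), with Cd74 at 2.43, H2-Q7 at 1.35, B2m at 1.06 and H2-DMb1 at 1.06. The lower ones were Tap2 (log2 fold change -1.60, SE 0.34, adjusted p = 0.00297), H2-K2 at -1.57, H2-Ob at -1.20 and Tap1 at -1.14. Leaving out a replicate here means leaving out the WT libraries of that number in all 6 populations. Libraries of the same number may come from a single mouse, and this test treats them as independent, so its p-values may be too small. Of 11 alternative settings H2-K2 was called under 5, Tap1 and H2-Ob under 6 each and H2-DMb1 under 7. H2-K2, Tap1 and H2-Ob were lost without the CLP libraries, in Tet2-/- libraries and without replicate 2 or 3, and the H2-K2 log2 fold change was -0.12 in Tet2-/- libraries. H2-DMb1 was lost without replicate 3, 4 or 5, and H2-K2, H2-Ob, Tap2 and B2m without replicate 5. Without the CLP libraries 17 members were called, 8 of them among the 11. With the Tet2-/- libraries in place of WT, 7 of the 11 were called in the same direction, and without replicate 5 the count was 6.

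In ST-HSCs 14 members were called (12.7% of all genes), 11 higher (8.62%) and 3 lower (4.11%). H2-Aa was higher (log2 fold change 3.11, SE 0.46, adjusted p = 0.000107), as were H2-Eb1 (2.96), Cd1d2 (2.53), H2-Ob (2.23), Cd74 (2.03), Cd1d1 (1.27), H2-Oa (1.20), H2-DMa (1.19) and H2-Ab1 (1.16), all as log2 fold changes. H2-T3 and H2-M5, near 0 in most populations, made up the 11, and H2-M5 was at 0.136, 0.442 and 0 CPM in the WT ST-HSC libraries. The H2-T3 call was lost under 4 of 11 alternative settings, DESeq2 among them, and the H2-M5 call under 4 of 8, so that nothing is read from these members. The lower ones were H2-T24 (-1.74), Tap1 (-1.62) and H2-Ke6 (-1.45). All 3 of these calls were lost without replicate 2. Of 11 alternative settings H2-T24 and Cd1d2 were called under 7 each and H2-Ke6 under 6, with H2-Ke6 at 0.54 in Tet2-/- libraries. So 7 of the 11 class II members tested were higher in ST-HSCs and none lower. All 14 were also called without the CLP libraries, and 7 of them in the Tet2-/- libraries, and without replicate 2 the count was 8.

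In CMPs 6 members were called (4.37% of all genes). H2-Ob (log2 fold change 1.18, SE 0.26, adjusted p = 0.00991) and H2-Ke6 (1.33) were higher (4.17%), and Cd74 (log2 fold change -3.22, SE 0.53, adjusted p = 0.000954), H2-Eb1 (-2.997), H2-Aa (-2.82) and H2-Ab1 (-1.42) were lower, against 0.195% of all genes. Of these 6, 3 were also called without the CLP libraries, since Cd74, H2-Aa and H2-Ab1 were then no longer called. The H2-Ke6 call was lost without any 1 of replicates 2, 3, 4 and 5, that of H2-Ob without replicate 3 or 4 and that of H2-Aa without replicate 2, 3 or 5. In GMPs 15 members were called (17.1%). Tap1 (log2 fold change 1.75, SE 0.25, adjusted p = 4.62e-05) and Tap2 (1.70) were higher (14.1%), and 13 were lower (2.97%): Cd74 (log2 fold change -4.87, SE 0.59, adjusted p = 5.92e-06), H2-Eb1 (-4.51), H2-Aa (-3.97), H2-Ab1 (-2.61), then H2-Q7, H2-Q6, H2-Oa, B2m, H2-Ob, H2-Q5, H2-T23, H2-T-ps and H2-T22 with log2 fold changes from -2.39 to -1.04. GMPs were the one population in which both transporter subunits were called higher while B2m was called lower. Without CLPs 11 of the 15 were called. The H2-T-ps call was lost under 5 of 11 alternative settings, among them without replicate 3, 4 or 5, and the H2-T22 call under 3, among them without replicate 2.

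In MEPs 25 members were called (15.7%), 2 higher (8.08%) and 23 lower (7.58%). The fall covered both classes, with 14 of 26 class I and 8 of 11 class II members tested lower. Among class I these were Psmb8 (log2 fold change -1.95, SE 0.18, adjusted p = 2.13e-07), H2-M3 (-1.97), Tap2 (-1.83), Nlrc5 (-1.52), Psmb9 (-1.25), H2-K1 (-1.23), Tap1 (-1.22), H2-Q6 (-1.18), H2-Q7 (-1.13), Erap1 (-1.11), H2-T22 (-1.09), H2-Q5, H2-T10 and H2-Q10. Among class II they were Cd74 (log2 fold change -5.59, SE 0.61, adjusted p = 1.39e-06), H2-Eb1 (-5.54), H2-Aa (-5.40), H2-DMb1 (-2.35), H2-Ob (-2.13), H2-DMa (-1.49), H2-Ab1 (-1.31) and H2-DMb2. Cd1d1 was lower as well (-1.53), and H2-Ke6 (1.43) and H2-T24 (1.01) were higher. H2-T24 was called under 4 of 11 alternative settings, DESeq2 not among them, and H2-Q10 under 2 of 11. Other calls were also lost when 1 replicate was left out. These were H2-T10 without replicate 2, 3 or 5, Tap1 without 2 or 3, and H2-Q7 without 3 or 5. Erap1 and H2-T22 were lost without replicate 3, and H2-M3, Nlrc5, H2-Q6 and H2-DMb2 without replicate 5. Without CLPs 17 of the 25 were called, and H2-K1, H2-Q6, H2-Q7, H2-Q10, H2-T22, Tap1, Erap1 and H2-Ab1 were no longer called. With Tet2-/- libraries in place of WT, 12 of the 25 were called in the same direction.

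In CLPs 29 members were called (28.6% of all genes), 28 higher (15.6%) and 1, Cd1d2, lower (13.0%). Class I contributed 19 of 26 tested and class II 8 of 11, each of them higher. These counts include H2-Bl in class I and H2-Eb2 in class II, whose calls are not read, as given below. Cd74 (log2 fold change 9.23, SE 0.40, adjusted p = 4e-12), H2-Eb1 (6.53), H2-Aa (5.38), H2-DMb2 (3.78) and H2-Ab1 (3.28) had high log2 fold changes in class II, and those in class I included H2-Q10 (3.02), H2-K2 (2.62), H2-T24 (2.44), Tapbp (2.29), H2-D1 (2.21), Tap2 (2.14), Tap1 (2.09), H2-K1 (1.49) and B2m (1.02). H2-Eb2, near 0 in the other populations, was also called (5.81), but was at 0, 4.70, 26.2 and 10.999 CPM in the WT CLP libraries. Its test rests on its CLP counts. H2-Bl was called as well (3.39), but was at 0.132, 0, 9.62 and 0.406 CPM, so that each of these genes had a library at 0. The H2-Bl call was lost under 8 of 11 alternative settings, among them those without any 1 replicate. Its log2 fold change was -0.14 without the libraries numbered 4. Nothing is read from the calls of H2-Eb2 and H2-Bl. H2-Q4, counted among the higher, was at 12.2, 6.001, 9.84 and 1.62 CPM in WT and 0.365, 4.001, 0.435 and 0.714 CPM in Tet2-/- CLPs, and in the Tet2-/- libraries its contrast turned direction (-1.52). The H2-Q4 call was lost without replicate 2, 3 or 4, without the low-count filter and with a replicate block. The B2m call was made under 8 of 11 alternative settings and was lost without the libraries numbered 4, without the low-count filter and with Tet2-/- libraries in place of WT. All of these were measured in libraries in which at least 25.4% of the counts were immunoglobulin transcripts. When immunoglobulin genes were left out of the counts before scaling, 29 members were again called, with Cd74 at 9.23 and H2-D1 at 2.22. The Tet2-/- CLP library with 0.0815% immunoglobulin counts had H2-Aa at 652 CPM, H2-Ab1 at 573 CPM, Cd74 at 1022 CPM and H2-D1 at 2451 CPM, each above every library of the other 5 populations. The same library had the highest NK cell transcripts of the CLP libraries, with Ncr1 at 1455 CPM, Nkg7 at 708 CPM and Klrb1c at 87.1 CPM, and their part in these values was not tested. Of the 29, 20 were called in the same direction when the Tet2-/- libraries were compared. Scaling by relative log expression moved the median of all genes by 0.18 on the log2 scale in this comparison, and 37 of 41 members were above 0 under either scaling.

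**Figure D3:**
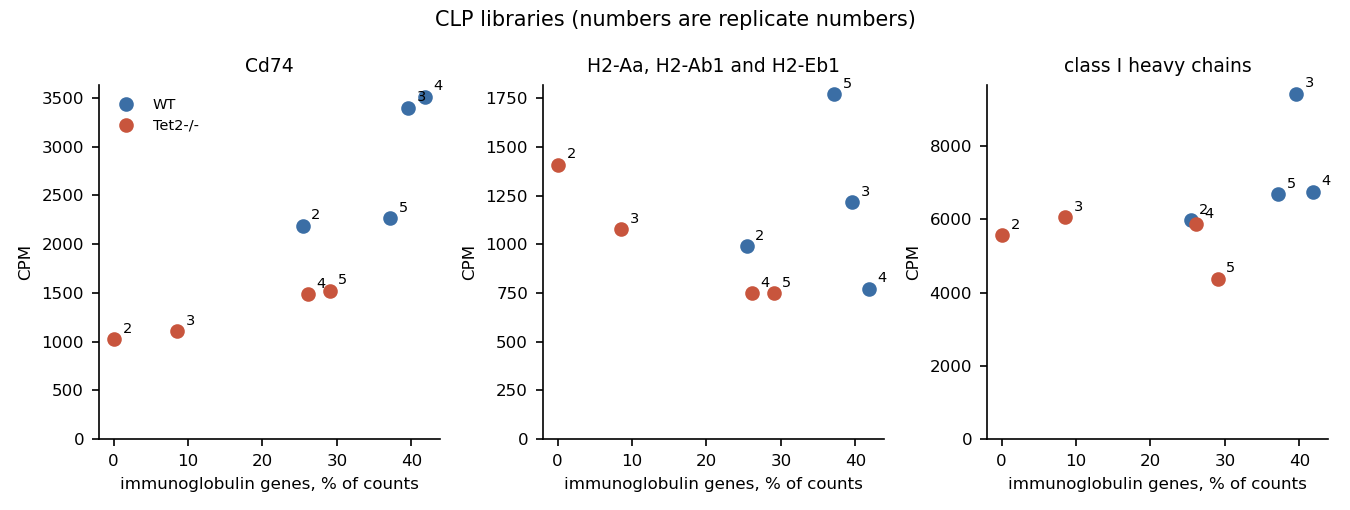
CPM of Cd74, of H2-Aa, H2-Ab1 and H2-Eb1 summed, and of the class I heavy chains summed, in the CLP libraries against the percentage of counts from immunoglobulin genes; points are libraries, numbered by replicate and coloured by genotype. The Tet2-/- library with almost no immunoglobulin counts has class I and class II sums within or near the range of the others, and all WT libraries have Cd74 above all Tet2-/- libraries.

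The genotypes were compared within each population by the same test. In LT-HSCs none of 40 members tested was called, compared with 0.0245% of all genes. By unadjusted p under 0.05 there were 4 (5.16% of all genes), and DESeq2 called 2 (1.38%), Cd1d2 and Ciita. Among members with a mean of at least 10 CPM, the largest changes were those of Cd1d2, H2-Oa and H2-Aa. H2-Oa was at 12.7, 27.3 and 23.1 CPM in WT and 29.2, 54.8, 28.8 and 36.4 CPM in the Tet2-/- libraries (log2 fold change 0.85, SE 0.37, adjusted p = 0.967), and Ciita at 0.527, 0.733 and 2.17 and 3.30, 7.92, 5.84 and 5.19 CPM (log2 fold change 2.28, SE 0.78, adjusted p = 0.743). Neither gene's values overlapped between genotypes, and with Cd1d2 they made 3 members without overlap, compared with 7.08% of all genes; the exact permutation p of each was 0.0286, the smallest that 3 libraries against 4 can give. H2-Aa was at 153, 179 and 145 CPM in WT and 149.8, 356, 303 and 208 CPM in the Tet2-/- libraries (log2 fold change 0.69, SE 0.30, adjusted p = 0.943), and these overlapped. The class II median log2 fold change was 0.47 with 10 of 11 members above 0, and that of class I was -0.06 with 11 of 25 above 0, beside 0.06 over all genes.

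In ST-HSCs none of 40 was called either (0.0185%), with 2 by unadjusted p (6.13%) and 2 by DESeq2 (1.97%), Cd1d2 and H2-K2. H2-K2 (chr17:33974659-33978827), annotated as a transcribed pseudogene beside H2-K1, was at 10.3, 5.68 and 7.0003 CPM in WT and 3.41, 2.33, 3.74 and 2.47 CPM in Tet2-/- ST-HSCs (log2 fold change -1.33, SE 0.52, adjusted p = 0.718). With Cd1d2 it was 1 of 2 members without overlap (8.14% of all genes). Tap1 (8.01 ± 3.21 CPM in WT, n = 3, and 13.9 ± 5.92 in Tet2-/-, n = 4) and H2-DMb2 (8.85 ± 2.72 and 15.3 ± 10.05 CPM) had the next largest changes, and both overlapped. The median log2 fold change was 0.11 for class I and 0.14 for class II, beside 0.04 over all genes.

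In CMPs 4 of 37 members were called (4.57%), of which 1 was higher and 3 were lower in Tet2-/- cells. H2-Ke6 was at 28.6, 29.5, 28.5 and 23.2 CPM in WT and 3.57, 2.20, 2.50 and 4.37 CPM in Tet2-/- CMPs (log2 fold change -3.12, SE 0.26, adjusted p = 0.000154). H2-T23 was at 152, 253, 237 and 191 and 67.4, 68.2, 88.6 and 80.2 CPM (log2 fold change -1.47, SE 0.18, adjusted p = 0.0012). H2-K2 was at 9.88, 11.2, 11.5 and 13.7 and 2.58, 4.02, 3.97 and 3.68 CPM (log2 fold change -1.71, SE 0.25, adjusted p = 0.00337). The genotypes were apart for all of these, and with H2-Q1 and Cd1d2 they made 5 members without overlap (15.8% of all genes); of all genes called in CMPs, 14.3% were higher. The fourth, Cd1d2, is described below. The H2-K2 call was lost in a single fit of all 46 libraries (edgeR adjusted p = 0.0683). Marker lists of other cells also separated the same libraries: 5 MEP genes summed to 882 to 2336 CPM in WT and 3716 to 7335 CPM in Tet2-/- CMPs, 6 B cell genes to 162 to 229.9 CPM in WT and 101 to 122 CPM in Tet2-/- CMPs and the plasma cell list to 187 to 302 CPM in WT and 78.7 to 114 CPM in Tet2-/- CMPs, each without overlap. Their part in the CMP differences was not tested. H2-D1 was at 839, 1034, 1052 and 1113 CPM in WT and 636, 865, 481 and 502 CPM in Tet2-/- CMPs, a difference that did not pass (log2 fold change -0.71, SE 0.19, adjusted p = 0.0543). H2-K1 was at 499, 437, 519 and 539.9 and 453, 767, 561 and 471 CPM. The median log2 fold change was 0.07 for class I, and -0.21 for class II with 1 of 10 above 0, beside 0.03 over all genes.

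In GMPs 2 of 36 members were called (4.37%), Cd1d2 higher and H2-Ke6 lower (log2 fold change -2.03, SE 0.36, adjusted p = 0.00498); of all genes called there, 7.05% were higher. Both calls were lost in a single fit of all 46 libraries (edgeR adjusted p = 0.629 for Cd1d2 and 0.249 for H2-Ke6). The plasma cell list summed to 219.9 to 273 CPM in WT and 88.2 to 114 CPM in Tet2-/- GMPs, without overlap. The 6 B cell genes summed to 125 to 173 and 113 to 132 CPM, which overlapped. The part of either list was not tested. Below the 2-fold threshold, Tapbp, the tapasin gene, was at 112, 66.3, 63.4 and 107 CPM in WT and 169, 170.1, 166 and 163 CPM in Tet2-/- GMPs (log2 fold change 0.91, SE 0.18, adjusted p = 0.00989). Psmb10 was at 76.4, 72.1, 73.1 and 87.98 and 98.9, 102.5, 118 and 107 CPM (log2 fold change 0.43, SE 0.11, adjusted p = 0.043), and H2-T23 at 51.7, 78.6, 58.04 and 54.9 and 29.2, 37.9, 44.7 and 42.6 CPM (log2 fold change -0.69, SE 0.18, adjusted p = 0.0409). The Tet2-/- libraries lay above all WT libraries for Tapbp and Psmb10 and below all of them for H2-T23. H2-Q6 (64.1, 41.3, 43.3 and 81.9 CPM in WT and 84.8, 249, 87.5 and 100.1 CPM in Tet2-/-) and H2-Q7 (56.7, 41.9, 33.01 and 68.9 and 65.8, 208, 84.7 and 74.1 CPM) had log2 fold changes of 1.15 and 1.09 that did not pass in edgeR (adjusted p = 0.0951 and 0.122), and DESeq2 called both (adjusted p = 0.0212 and 0.0373). Replicate 3 of the Tet2-/- GMPs was the highest for both. In all 8 members had no overlap, 6 higher and 2 lower, compared with 13.3% of all genes. The class I median log2 fold change was 0.35 with 21 of 23 members above 0, beside 0.03 over all genes, and that of class II was -0.08 with 4 of 9 above 0.

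In MEPs 2 of 35 members were called (4.36%), both lower; of all genes called there, 3.38% were higher. The plasma cell list summed to 76.7 to 119 CPM in WT and 6.17 to 55.2 CPM in Tet2-/- MEPs, again without overlap. Immunoglobulin genes, however, took 0.000375% to 0.00522% of counts in WT and 0.000616% to 0.00546% in Tet2-/- MEPs. The 6 B cell genes summed to 7.06 to 18.9 and 6.04 to 20.9 CPM. Both of these overlapped, and the part of plasma cells was not tested. H2-Ke6 was at 32.3, 34.1, 28.996 and 24.6 CPM in WT and 3.77, 3.45, 2.16 and 3.11 CPM in Tet2-/- MEPs (log2 fold change -3.26, SE 0.23, adjusted p = 5.49e-05), and H2-K2 at 4.58, 4.91, 4.37 and 4.87 and 1.69, 2.36, 1.36 and 1.03 CPM (log2 fold change -1.54, SE 0.34, adjusted p = 0.0304). H2-D1 was at 768, 628, 651 and 578 and 456, 478, 219 and 272 CPM (log2 fold change -0.89, SE 0.24, adjusted p = 0.0724), apart but not past the test, and 5 members had no overlap (13.0% of all genes). The H2-K2 call was made under 3 of 13 alternative settings and was lost when any library other than Tet2-/- replicate 3 was left out. The count of called members was 1 without WT replicate 2, 4 or 5 or Tet2-/- replicate 4 or 5. H2-T23 (102.4 ± 38.7 CPM in WT and 49.6 ± 25.02 in Tet2-/-, SD, n = 4 each) and H2-Q7 (109 ± 38.7 and 227 ± 219 CPM) did not pass either. Replicate 3 of the Tet2-/- MEPs was high in class I and II alike: the Tet2-/- MEPs had H2-K1 at 346, 816, 341 and 323 CPM, Nlrc5 at 8.14, 41.9, 9.28 and 16.1 CPM and H2-Aa at 0.573, 5.07, 1.15 and 0.403 CPM, where replicate 3 is the second value of each. The class I median was 0.36 with 17 of 23 above 0, and that of class II 0.10 with 5 of 8 above 0, beside 0.05 over all genes.

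In CLPs none of 40 was called (0.00766%), with 2 by unadjusted p (3.65%) and 2 by DESeq2 (2.8%), Cd1d2 and Cd74. Cd74 was at 2190.2, 3401, 3513 and 2266 CPM in WT and 1022, 1105, 1487 and 1523 CPM in Tet2-/- CLPs (log2 fold change -1.15, SE 0.32, adjusted p = 0.831), with no overlap, and H2-D1 was at 3168, 4738, 3281 and 3268 and 2451, 2849, 2597 and 2317 CPM (log2 fold change -0.50, SE 0.29, adjusted p = 1). They were among 4 members without overlap (3.87% of all genes). Without immunoglobulin genes in the counts the Cd74 difference was -1.16 (adjusted p = 0.451). H2-T24 and Nlrc5 had log2 fold changes of -1.59 and 0.87 that did not pass, Nlrc5 being at 8.31, 36.5, 31.5 and 40.6 CPM in WT and 107, 83.4, 4.95 and 18.6 CPM in Tet2-/- CLPs. The immunoglobulin share was also higher on average in the WT group, and its part in these values was not tested. The median was -0.37 for class I, with 5 of 25 above 0, and -0.06 for class II, beside 0.07 over all genes.

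**Figure D4:**
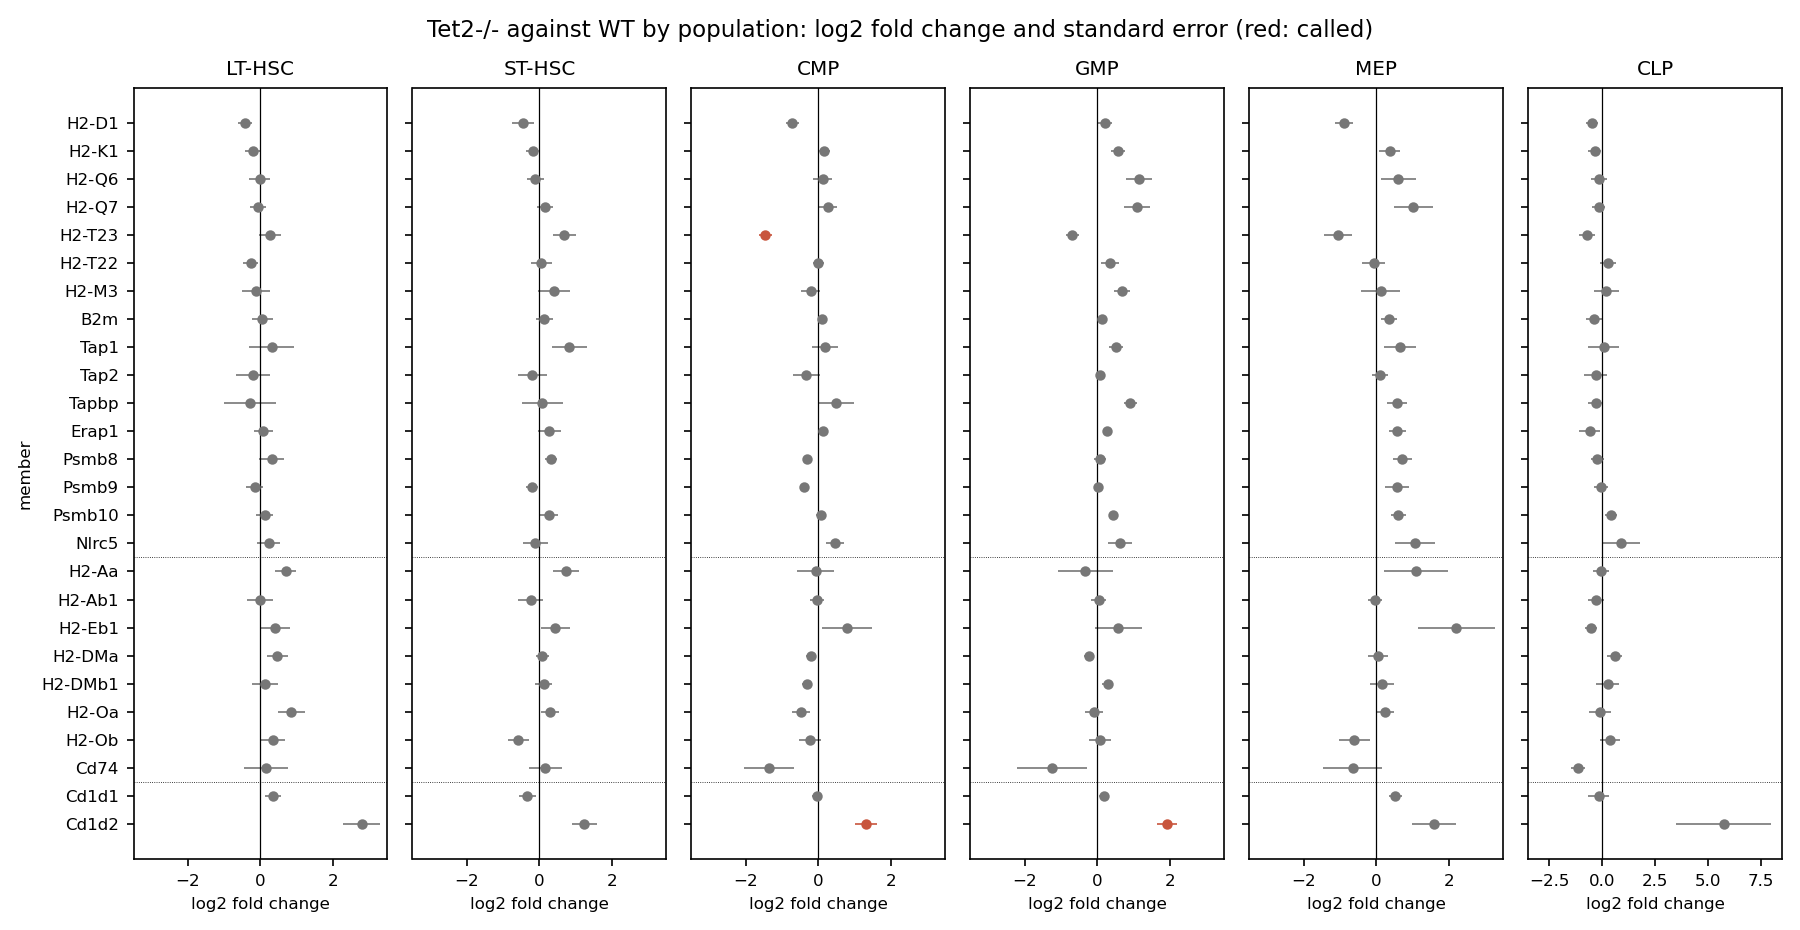
Log2 fold change of Tet2-/- against WT (edgeR estimate, bars are standard errors) for selected members in each of the 6 populations; members called are in red, and the CLP panel has a wider axis. Cd1d2 is above 0 in every population and called in CMPs and GMPs, and H2-T23 is called lower in CMPs.

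Cd1d2 (chr3:86986551-86989780), a CD1d gene that lies beside Cd1d1 and is annotated as a polymorphic pseudogene, was higher in Tet2-/- than in every WT library of the same population, in all 6 populations. It was at 4.15, 2.36 and 2.58 CPM in WT and 14.4, 25.5, 31.9 and 11.96 CPM in Tet2-/- LT-HSCs. In ST-HSCs it was at 9.42, 15.2 and 9.90 and 31.8, 19.2, 22.6 and 32.7 CPM, and in CMPs at 11.9, 4.98, 5.39 and 6.71 and 23.8, 15.4, 15.9 and 17.7 CPM. The genotypes did not overlap in any of these. In GMPs it was at 2.38, 1.97, 3.76 and 2.44 and 11.97, 9.41, 11.001 and 9.43 CPM, in MEPs at 1.46, 8.55, 4.57 and 1.01 and 9.001, 12.7, 14.7 and 11.2 CPM, and in CLPs at 0, 0, 0 and 0.449 and 2.18, 2.42, 12.3 and 15.4 CPM. Within a population the difference was called in CMPs (log2 fold change 1.31, SE 0.31, adjusted p = 0.0351) and GMPs (log2 fold change 1.94, SE 0.27, adjusted p = 0.00108), and it did not pass in MEPs (log2 fold change 1.60, SE 0.60, adjusted p = 0.215), ST-HSCs (log2 fold change 1.24, SE 0.34, adjusted p = 0.442) or LT-HSCs, where the log2 fold change was 2.79 with an adjusted p of 0.435. The CMP call was made under 4 of 13 alternative settings, with adjusted p up to 0.652, and was lost when any library other than WT replicate 2 was left out. Cd1d1, which presents lipids to NKT cells, passed the test in no population: it was at 70.4 ± 10.6 CPM (SD, n = 3) in WT and 89.1 ± 14.8 CPM (n = 4) in Tet2-/- LT-HSCs, and at 53.7 ± 5.37 and 62.2 ± 9.18 CPM (n = 4 each) in GMPs.

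H2-Ke6 (chr17:34026033-34028060) was lower in Tet2-/- CMPs, GMPs and MEPs but not in stem cells, where the test did not pass and it was at 3.57, 8.54 and 8.16 CPM in WT and 7.29, 2.37, 3.68 and 7.08 CPM in Tet2-/- LT-HSCs. The high levels of WT CMPs and MEPs were thus absent from the same Tet2-/- populations, and the contrast with the other populations had the opposite sign in Tet2-/- ST-HSCs, CMPs and MEPs. H2-K2, 17.2 kb from H2-K1, and H2-Ke6, 25.7 kb from H2-K1 on the other side, were both lower in Tet2-/- CMPs and MEPs, while the H2-K1 difference did not pass in either. In MEPs the H2-K1 means were 348 ± 50.7 CPM in WT and 456 ± 239.9 CPM in Tet2-/- (SD, n = 4 each).
The classical class I genes are set beside each other by their ratio. The H2-D1 to H2-K1 ratio was 1.68, 2.03, 2.06 and 2.37 in WT CMPs and 0.857, 1.07, 1.13 and 1.40 in Tet2-/- CMPs, and 1.59, 1.86, 2.05 and 2.12 in WT MEPs and 0.586, 0.643, 0.842 and 1.32 in Tet2-/- MEPs (sorted values). The genotypes did not overlap in either population. In GMPs the mean ratios were 2.48 ± 0.223 and 1.93 ± 0.265 (SD, n = 4 each), and in LT-HSCs 0.646 ± 0.0134 (n = 3) and 0.579 ± 0.162 (n = 4). The ratio was chosen after its values were seen and has no test.

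**Figure D5:**
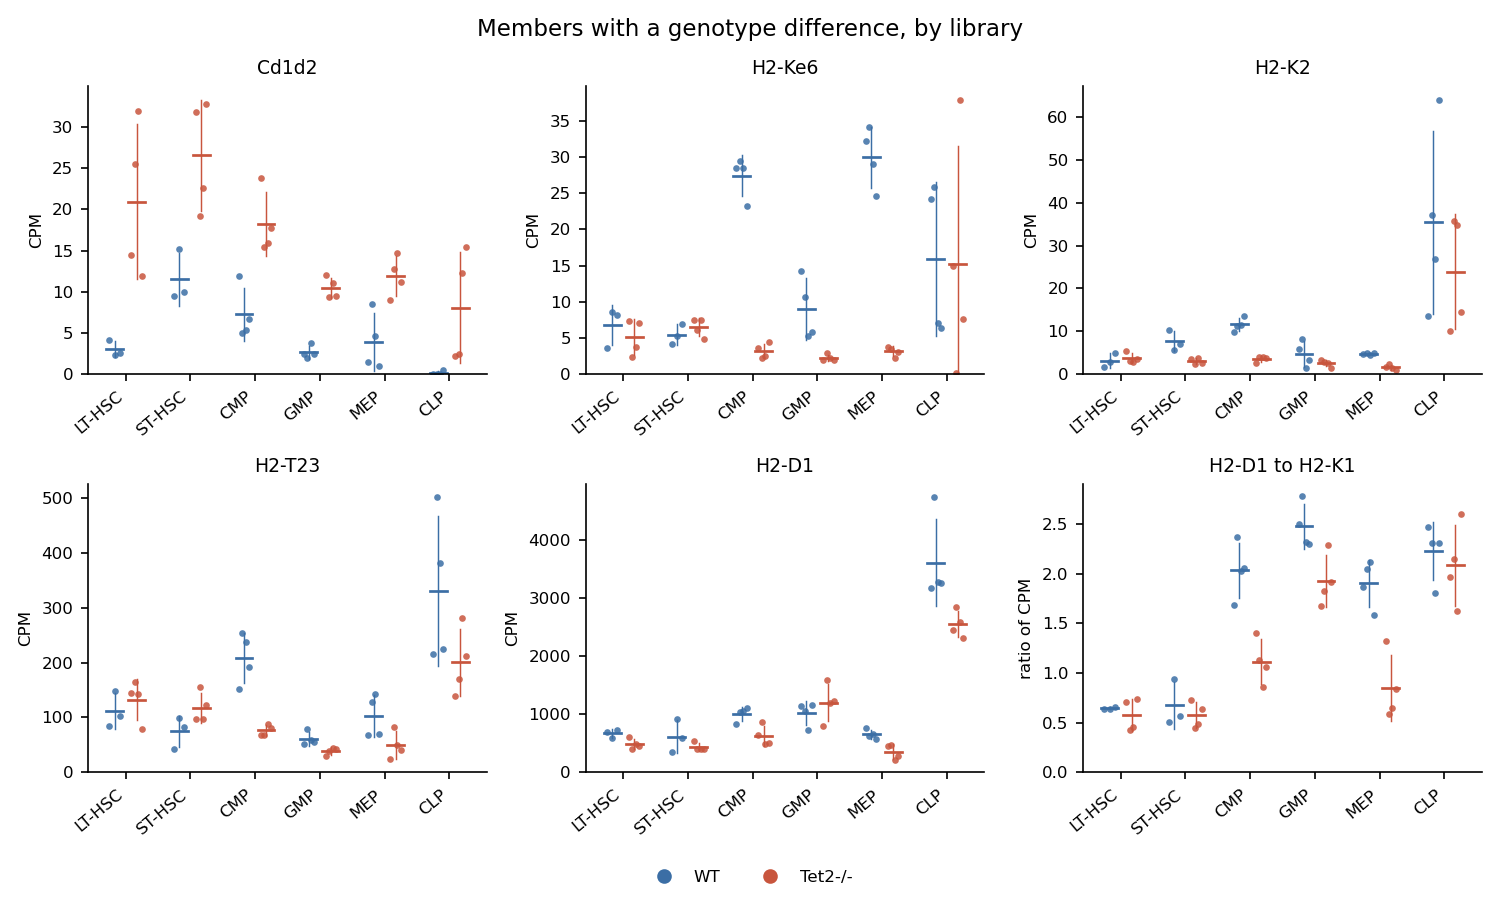
CPM on a linear axis from 0 for selected members in WT and Tet2-/- libraries of each population; dots are libraries and bars are mean ± SD. Cd1d2 values of the genotypes do not overlap in any population, and H2-Ke6 and H2-T23 are lower in Tet2-/- CMPs.

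Over the 6 populations, 2 of 42 members had a called mean genotype effect (3.49% of all genes): Cd1d2 (log2 fold change 2.45, SE 0.34, adjusted p = 2.04e-06) and H2-Ke6 (log2 fold change -1.43, SE 0.27, adjusted p = 0.000335). Smaller mean effects that passed the adjusted p alone were those of H2-K2 (log2 fold change -0.97, SE 0.19, adjusted p = 0.000809), H2-Q1 (-0.55), H2-T23 (-0.49), H2-D1 (log2 fold change -0.46, SE 0.10, adjusted p = 0.00169) and Psmb10 (0.32). Both called mean effects were called under all 10 alternatives tried. This test and that of differing effects treat same-numbered libraries as independent. Such libraries may come from 1 mouse, so the p-values may be too small. The effect differed between populations for 2 members (2.65% of all genes), H2-T23 (adjusted p = 0.0307) and H2-Ke6 (adjusted p = 0.034). H2-T23 had log2 fold changes of 0.27 in LT-HSCs, 0.69 in ST-HSCs, -1.47 in CMPs, -0.69 in GMPs and -1.06 in MEPs, compared with -0.72 in CLPs. The H2-T23 call was lost without any 1 of replicates 2, 3, 4 and 5 (adjusted p up to 0.296), and the H2-Ke6 call without replicate 2, 4 or 5, without the low-count filter and in limma voom with an estimated correlation within genotype and number, leaving it under 4 of 10 alternative settings. The count fell to 0 without replicate 2 or 4 and to 1 without replicate 3 or 5, and DESeq2 called 5. Mean summed CPM of the class I heavy chains was 2773 ± 169 in WT and 2405 ± 361 in Tet2-/- LT-HSCs, 2314 ± 537 and 2075 ± 171 in ST-HSCs, 2162 ± 195 and 1742 ± 444 in CMPs, 1699 ± 329 and 2231 ± 649 in GMPs, 1398 ± 163 and 1325 ± 737 in MEPs and 7213 ± 1517 and 5467 ± 753 in CLPs. The Tet2-/- MEP libraries were at 1085, 2423, 881 and 911 CPM, so that all but replicate 3 lay below the lowest WT MEP library, at 1289 CPM. The mean class II chain sum was 653 ± 83.3 and 864 ± 314 in LT-HSCs and 206 ± 19.9 and 203 ± 9.59 in GMPs (SD, n = 3 for WT LT-HSCs and ST-HSCs and 4 for the others).

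Another 23 genes of the pathway were examined: 6 loading partners, 10 promoter factors and 7 class II processing genes. By genotype 3 of 22 tested were called in CMPs (4.57% of all genes) and 2 of 22 in MEPs (4.36%), all of them lower in Tet2-/-, and none of 21 to 23 was called in the other populations (0.00766% to 4.37%). Pdia3, the disulfide isomerase of the class I loading complex, was lower in CMPs (log2 fold change -1.87, SE 0.21, adjusted p = 0.000788) and MEPs (log2 fold change -2.18, SE 0.23, adjusted p = 0.00057). Nfyc, a subunit of the factor that binds the Y box, was lower in CMPs (log2 fold change -1.19, SE 0.16, adjusted p = 0.00198) and MEPs (log2 fold change -1.53, SE 0.18, adjusted p = 0.00102). Ctss, the protease that degrades the invariant chain, was lower in CMPs (log2 fold change -1.31, SE 0.26, adjusted p = 0.0168). The mean effect was called for Pdia3 (log2 fold change -1.08, SE 0.10, adjusted p = 1.23e-09) and, as higher in Tet2-/-, for March1, a ubiquitin ligase of class II. March1 was at 0 in every WT LT-HSC, CMP and CLP library and at most 0.670 CPM in any WT library. In Tet2-/- CLPs March1 was at 0, 0, 0.0990 and 14.6 CPM, so that nothing is read from this mean effect. Among WT populations, GMPs had higher Calr (log2 fold change 2.28, SE 0.09, adjusted p = 3.98e-12), Pdia3 and Tapbpl, which made 3 of the 6 loading partners (14.1% of all genes), beside higher Tap1 and Tap2. Stem cells had lower Pdia3, at a log2 fold change of -2.34 in LT-HSCs and -2.67 in ST-HSCs, beside lower Tap1. Calr (-1.38 and -1.16) and Tapbpl (-1.66 and -1.28) were called lower there too. In MEPs Ctss was lower (log2 fold change -6.90, SE 0.50, adjusted p = 8.32e-09), as were Lgmn, Irf2, Calr and Tapbpl, while Ifi30 and Rfxap were higher. Rfxap was likewise called higher in LT-HSCs (2.22), ST-HSCs (1.48) and CMPs (1.48), and each of these contrasts includes the CLP libraries. March1 was also called higher in MEPs, but at no more than 0.670 CPM, so that nothing is read from its call. In CLPs 9 of 23 were higher (15.6% of all genes), led by Lgmn, Ctss and Tapbpl, and Rfxap was listed at 0 in all WT CLP libraries.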

How the data were processed

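Counts per gene from RNA-seq of 46 libraries of 200 sorted cells (per the labels) were analysed as deposited by the authors; their processing notes list Trim Galore 0.6.7, HISAT2 and DESeq2, and both mm10 and mm9 (the study's methods name mm10), while the counting program and annotation are not given in the sources used here. A second table, with 9 further samples, was not used. Members and gene lists were chosen with earlier results of these data known. Genes were filtered with filterByExpr, scaled by TMM and tested with edgeR 4.0.16 (quasi-likelihood, prior count 2, R 4.3.3) within each population for genotype, and over WT libraries for each population against the mean of the other 5. P-values were adjusted by Benjamini-Hochberg over all genes, and calls needed an adjusted p under 0.05 and a 2-fold change (the test of differing genotype effects, p alone). DESeq2 1.42.0 and limma 3.58.1 served as alternatives. A result for a gene of the pathway list is not reported here. The text names fixed role genes, called members (at least the 4 of largest change per direction where over 8 were called; the others were added after their values were seen), and otherwise the 3 of largest change. Totals of 50458473 to 102148079 counts set the precision of read counting only. By the study's methods the cDNA was amplified, so reads are not independent molecules.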

Additional observations from a re-analysis of the deposited data

Results flagged for a closer look

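Of 160 groups of 4 libraries examined, 17 held a library whose gap to its nearest neighbour was large for the range of its group. Chance alone would give about 1 in 20 for independent, normally distributed values. CPM values of similar genes, and sums that hold them, are not independent, so no excess over chance is read from this count. Replicate 3 of the Tet2-/- MEPs lay apart for H2-K1 (816 CPM), H2-Q6 (331 CPM), H2-Q7 (554 CPM), H2-Aa (5.07 CPM) and the summed class I heavy chains (2423 CPM), each time as the highest. Replicate 3 of the Tet2-/- GMPs lay apart for H2-Q6 (249 CPM), H2-Q7 (208 CPM) and Cd74 (0.912 CPM). Among summed class I heavy chains, Tet2-/- LT-HSC replicate 5 (1863 CPM), ST-HSC replicate 3 (2330.2 CPM) and CMP replicate 3 (2404 CPM) also stood off. H2-D1 was at 537 CPM in Tet2-/- ST-HSC replicate 2 and at 4738 CPM in WT CLP replicate 3. H2-Q6 in WT MEP replicate 2 (127 CPM), H2-Ke6 in WT CMP replicate 5 (23.2 CPM), H2-Ab1 in Tet2-/- CMP replicate 4 (42.8 CPM) and Cd1d2 in WT CLP replicate 5 (0.449 CPM) completed the list. The genotype effect differed between populations for H2-T23 (edgeR adjusted p = 0.0307) and H2-Ke6 (edgeR adjusted p = 0.034).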

How the results depend on the processing

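Of 169 counts of called members under other settings, 138 stayed within 1.5 times the main count. DESeq2 called 2 members in LT-HSCs, 2 in ST-HSCs, 4 in GMPs, 2 in CLPs and 5 for effects that differ between populations. Unadjusted p with 2-fold change gave 2 in LT-HSCs, 2 in ST-HSCs, 2 in CLPs, 4 in GMPs and 4 in MEPs. A single fit of all 46 libraries called 2 in CLPs, 2 in CMPs, 1 in MEPs and 0 in GMPs. Without the low-count filter 1 was called in MEPs and 1 for differing effects. With Tet2-/- libraries in place of WT, 9 were called in ST-HSCs and 15 in MEPs, and H2-Ke6 turned direction, at a log2 fold change of 0.54 in ST-HSCs, -0.71 in CMPs and -0.72 in MEPs, as did H2-Q4 (-1.52) in CLPs. H2-Bl in CLPs was at -0.14 without the libraries numbered 4. Without CLP libraries, chosen after seeing the data, 17 were called in WT LT-HSCs. The cause of these moves was not tested.
Leaving out each replicate gave 0 to 0 called by genotype in LT-HSCs, ST-HSCs and CLPs, 3 to 4 in CMPs, 2 to 3 in GMPs and 1 to 2 in MEPs. For WT populations, and for the mean and differing effects, a replicate was every library of that number. It gave 6 to 11 in LT-HSCs, 8 to 14 in ST-HSCs, 4 to 5 in CMPs, 14 to 15 in GMPs, 18 to 24 in MEPs and 26 to 31 in CLPs, for the mean effect 2 to 3, and for differing effects 0 to 1.
Replicate numbers tied the libraries only weakly. Same-numbered libraries of the 2 genotypes correlated at a median of 0.00963 over 22 pairs, with none over 0.1. Those of different populations of 1 genotype correlated at a median of 0.0259 over 111 pairs, with 1 over 0.1, at 0.106. Differently numbered pairs of these kinds had medians of -0.00481 over 66 pairs and -0.00860 over 330 pairs. Small correlations do not show that the libraries came from separate mice. With a replicate block 1 member had a differing effect instead of 2, and the counts were 0 in LT-HSCs, ST-HSCs and CLPs, 4 in CMPs, 2 in GMPs and 2 in MEPs. The block ended the calls of H2-K2 by genotype in MEPs, where H2-T23 was called in its place, of the differing effect of H2-Ke6, and, among WT populations, of H2-DMb1 in LT-HSCs, H2-T3, H2-M5 and Cd1d2 in ST-HSCs, H2-Q10 in MEPs and H2-Q4 and H2-Bl in CLPs. Members at 0 in every library were not detectable at this depth.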
